A study of Homo sapiens with 6 samples.

Results

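Glycerolipid synthesis and lipid droplet genes were measured in HK-2 cells, and 10 of the 41497 named entries of the deposited tables made up the group. The members were GPAT3, GPAT4, GPAM, AGPAT2, LPIN1, LPIN2, DGAT1, DGAT2, PLIN2 and PNPLA2, each read from its entry on a primary chromosome. The group was chosen on these same libraries for the strong fall of GPAT3, so the changes of its members are given as a description, without p-values. HK-2 is a line of human kidney proximal tubule epithelial cells immortalised with papillomavirus genes, and all cells were of the WT genotype. There were 3 control and 3 TGF-β1 libraries, both collected at 24 h, and RNA-seq was used in the study to find genes that respond to this profibrotic cytokine. The labels give neither the dose of TGF-β1 for these libraries nor separate cultures for the replicates, so p-values measure only the spread between these samples, which may be technical. The study's methods describe TGF-β treatment at 5 ng/mL in serum-free medium, without naming the sequencing libraries. Whether the control cells were also without serum is not stated, so any effect of serum on these lipid genes cannot be told apart from that of TGF-β1.

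Glycerolipid synthesis begins when a GPAT enzyme joins a fatty acyl-CoA to glycerol 3-phosphate. AGPAT enzymes add another acyl chain to make phosphatidate, lipins remove its phosphate to make diacylglycerol, and DGAT enzymes add the last acyl chain to make triglyceride, which is stored in lipid droplets. Perilipins coat the droplets, and lipolysis starting with PNPLA2 releases the fatty acids again. Tubule cells burn fatty acids as a main fuel and hold few droplets in health.

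Each library had 21.9 to 26.9 megacounts, and 14860 genes were tested. The 5 TGF-β response genes chosen as a check all rose, between 1.08 on the log2 scale for SKIL and 2.60 for PMEPA1. Of 12 proximal tubule markers, LRP2 and SLC22A6 had 0 counts in every library, and 7 in all did not pass 0.5 CPM (counts per megacount) in any library. Those most abundant fell, PAX8 from 251 ± 13.9 to 151 ± 12.1 CPM (-0.73 on the log2 scale) and GGT1 from 75.6 ± 7.22 to 50.5 ± 5.90 CPM (-0.58), while AQP1 (2.10) and CUBN (0.82) rose from under 0.7 CPM. The summed level of the tubule list was 309 to 343 CPM in control and 193 to 226 CPM after TGF-β1. Of 5 epithelial markers, KRT8 and KRT18 rose (0.65 and 0.58), KRT19 and EPCAM fell (-1.34 and -1.25), and CDH1 did not pass 0.13 CPM. Their sum, mostly KRT8, was 808 to 868 CPM in control and 1054 to 1213 CPM after TGF-β1.

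Of 8 adipocyte markers, 7 did not pass 0.5 CPM, among them ADIPOQ and LEP at 0 counts. The summed level of 6 leukocyte and macrophage markers was 99.3 to 109 CPM in control and 86.0 to 112 CPM after TGF-β1, but its members moved both ways. CSF1R rose from 4.19 to 24.6 CPM (2.55), CD68 fell from 96.7 to 71.0 CPM (-0.44) and CD14 fell from 2.55 to 0.763 CPM (-1.72), with PTPRC and CD3E at or near 0. The sum of 7 fibroblast and endothelial markers, mostly LUM, was 60.4 to 69.4 and 56.6 to 57.7 CPM. In that list PDGFRB rose from 0.551 to 5.79 CPM (3.38), LUM fell by 0.28 on the log2 scale, and CDH5 fell from 29, 16 and 17 counts in control to 0 in every TGF-β1 library. These marker changes accompany those of the members described next, and their part in them was not tested.

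Of the 10 members, 9 passed the filter on low counts and 5 of these were called changed at an adjusted p under 0.05 in the edgeR quasi-likelihood test. Over all genes tested, 44.3% were called, 22.1% lower and 22.2% higher, and nothing is read from the members' count beside these shares. GPAT3, LPIN1, LPIN2 and PLIN2 fell and GPAM rose. GPAT4, AGPAT2, DGAT2 and PNPLA2 were not called, and the DGAT1 entry on its chromosome had no counts. In bulk RNA, fewer cells with a transcript and less of it in each cell cannot be told apart.

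**Figure D1:**
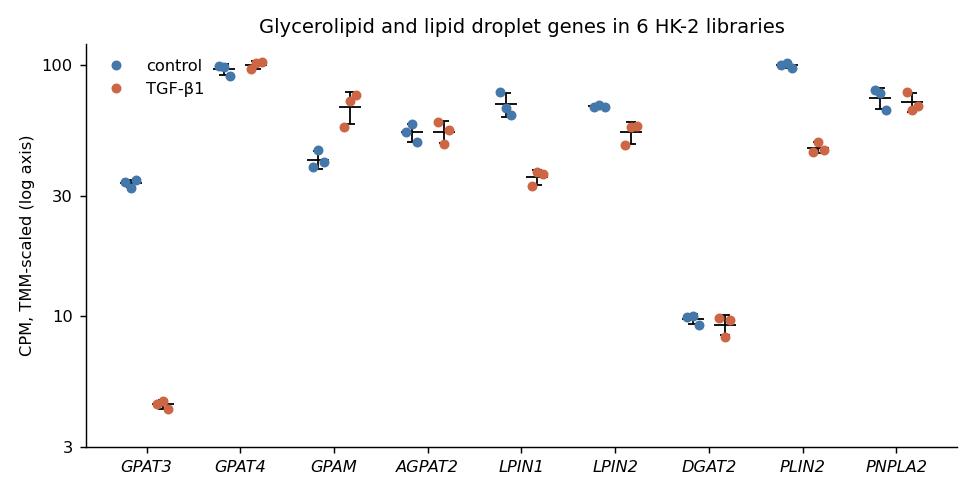
CPM after TMM scaling (y axis, log scale) of the 9 members with counts (x axis) in 3 control and 3 TGF-β1 libraries. Points are libraries, and the black bars are the mean and SD of a group. The GPAT3 points lie between 32.3 and 34.6 CPM in control and between 4.25 and 4.59 CPM after TGF-β1.

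Sequence just before the start of 3 members is shown, namely GPAT3 and PLIN2 with the largest falls and GPAM with the only rise. The letters are the 250 bases before a RefSeq start (GRCh38.p14), read 5′ to 3′ on the gene's strand. Capitals mark GGGCGG (the GC box) or CACGTG (an E-box), on either strand, and neither overlaps the other.
GPAT3, chr4:83535857-83536106 (+): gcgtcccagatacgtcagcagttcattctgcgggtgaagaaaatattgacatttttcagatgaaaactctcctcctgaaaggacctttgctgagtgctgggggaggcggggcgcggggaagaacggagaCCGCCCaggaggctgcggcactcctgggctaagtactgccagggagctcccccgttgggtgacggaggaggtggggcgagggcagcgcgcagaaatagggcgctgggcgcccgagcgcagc
PLIN2, chr9:19127493-19127742 (-): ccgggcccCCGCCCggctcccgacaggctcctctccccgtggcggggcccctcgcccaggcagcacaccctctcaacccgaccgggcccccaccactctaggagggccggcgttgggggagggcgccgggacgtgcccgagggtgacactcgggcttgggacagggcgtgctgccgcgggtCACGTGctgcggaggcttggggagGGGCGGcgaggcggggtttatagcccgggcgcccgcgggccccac
GPAM, chr10:112183766-112184015 (-): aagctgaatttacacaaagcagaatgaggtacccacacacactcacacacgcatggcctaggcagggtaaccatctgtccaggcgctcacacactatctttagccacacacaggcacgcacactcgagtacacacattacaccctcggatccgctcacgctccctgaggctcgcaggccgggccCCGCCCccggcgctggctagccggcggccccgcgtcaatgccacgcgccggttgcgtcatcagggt

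The GPAT3 stretch holds GGGCGG at 121 bases before the start and GPAM holds it at 66 bases, each on the opposite strand. PLIN2 holds GGGCGG at 242 bases on the opposite strand and at 45 bases on its own strand, and CACGTG at 69 bases before the start. RefSeq windows of 300 bases, reaching 50 bases past the start, were taken for 7 members, 11 windows in all. Windows on chromosome 8, where GPAT4 and DGAT1 lie, were left out for the members but not from the windows of all genes. DGAT2 had no window in this set. The 2 windows of GPAT3 differ by a shift of 1 base, and LPIN1 and LPIN2 also had more than 1 window. The 11 windows are thus not separate genes. GGGCGG was in 9 of the 11 windows, and in 45.0% of the 35116 windows of all genes. CACGTG was in 2 of the 11, of PLIN2 and LPIN2, and in 7.26% of all windows. CAGAC, the short SMAD box, was in 3 of the 11, of LPIN1, LPIN2 and PNPLA2, and in 45.3% of all windows. TGANTCA, the AP-1 site, was in none of the 11 and in 7.71% of all windows. These matches are letters in a window, and binding was not measured. The deposited tables list GPAT3 from base 83535634, so the GPAT3 stretch lies inside the span over which its reads were counted. For GPAM they list a span up to base 112216306 on the minus strand, which takes in starts farther upstream than the stretch shown.

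GPAT3 (chr4:83535634-83605875, plus strand, 15 exon blocks) makes an enzyme of the endoplasmic reticulum that catalyses the first acylation of glycerol 3-phosphate. It had 769, 790 and 813 counts in the control libraries and 116, 111 and 89 counts after TGF-β1. Scaled to CPM, control libraries were at 34.1, 32.3 and 34.6 and TGF-β1 libraries at 4.46, 4.59 and 4.25. Every TGF-β1 library was below every control library, by far more than the spread within either group. The means of 33.7 ± 1.23 and 4.43 ± 0.172 CPM (SD, n = 3) were 7.60-fold apart. The log2 fold change was -2.92 ± 0.08 (SE), and 53 of the 14860 genes tested had a lower one.

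GPAM (chr10:112149865-112216306, minus strand) makes the GPAT of the outer mitochondrial membrane. It was at 39.0, 45.6 and 41.0 CPM in control and at 56.5, 71.8 and 75.9 CPM after TGF-β1. The groups did not overlap, and the TGF-β1 libraries were spread more widely, with replicate 1 well below the others. The same library was the lowest of its group for LPIN2 but the highest for AGPAT2. GPAM rose by 0.70 ± 0.11 (log2 fold change, SE), or 1.62-fold between the means.

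GPAT4 (chr8:41578190-41625001) makes the other GPAT of the endoplasmic reticulum. It was at 98.9, 98.3 and 90.7 CPM in control and 96.1, 101 and 102 CPM after TGF-β1. The groups overlapped, and the log2 fold change of 0.06 ± 0.06 (SE) was not called. With total counts in place of TMM as the scale, its sign was the opposite.

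The make-up of the GPAT enzymes was compared per length, as the share of each in the summed TPM of GPAM, GPAT2, GPAT3 and GPAT4. GPAT3 had 15.8%, 15.6% and 18.0% of this sum in control and 2.50%, 2.42% and 2.16% after TGF-β1. The share of GPAM was 14.6 ± 1.49% in control and 25.7 ± 2.69% after TGF-β1, and that of GPAT4 was 38.9 ± 0.696% and 44.1 ± 0.796% (SD, n = 3). GPAT3 was thus next to GPAM in control and last of the 4 after TGF-β1. GPAT2, a mitochondrial isoform known mainly from testis, had 30.1 ± 2.80% and 27.9 ± 2.03%. The summed deposited TPM, which is not TMM-scaled, was 126 ± 4.84 in control and 107 ± 7.82 after TGF-β1. Without GPAT3 it was 105 ± 5.57 and 104 ± 7.78. Levels after TGF-β1 read lower on this scale than in TMM-scaled CPM. GPAT4, for one, was at 48.9 and 47.0 TPM but at 96.0 and 99.9 CPM. How far the sums changed thus depends on the scale, while shares within a library do not. These shares use the contrast that chose GPAT3 and are a description.

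**Figure D2:**
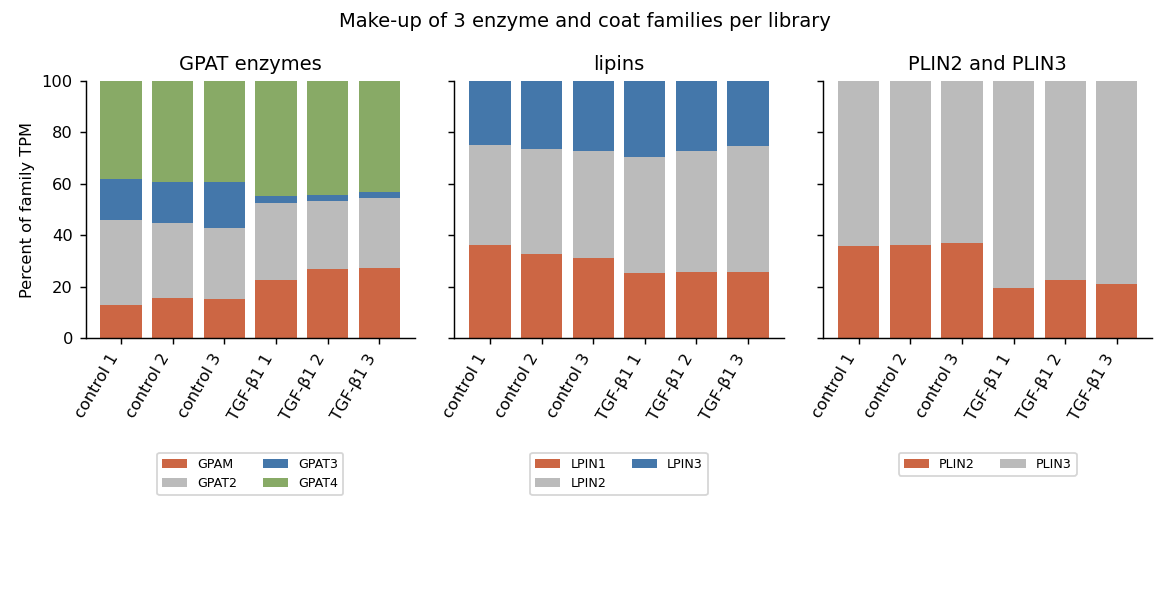
Share (y axis, percent of the family's summed TPM) of each gene in 3 families, in each of the 6 libraries (x axis). GPAT3 takes between 15.6% and 18.0% of the GPAT sum in control and between 2.16% and 2.50% after TGF-β1, and PLIN2 takes 36.0% to 36.9% and 19.7% to 22.5% of the sum with PLIN3.

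AGPAT2 (chr9:136673143-136687457, minus strand), whose enzyme makes phosphatidate and is lost in a form of congenital lipodystrophy, was at 54.2, 58.1 and 49.3 CPM in control. After TGF-β1 it was at 59.3, 48.5 and 54.9 CPM. The groups overlapped throughout, and the log2 fold change was 0.01 ± 0.08 (SE). Its sign changed under several of the alternatives tried.

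LPIN1 (chr2:11677544-11827409, plus strand) makes lipin 1, a phosphatidate phosphatase that also acts in the nucleus as a coactivator of fatty acid oxidation genes. It was at 78.0, 67.3 and 63.3 CPM in control and at 32.8, 37.5 and 36.8 CPM after TGF-β1. The groups were well apart, although control varied with a coefficient of variation of 10.9%. LPIN1 fell by 0.96 ± 0.09 on the log2 scale, or 1.95-fold between the means.

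LPIN2 (chr18:2916994-3013201, minus strand), another lipin, was at 67.7, 68.9 and 68.2 CPM in control and at 47.7, 56.4 and 57.2 CPM after TGF-β1. It fell by 0.34 ± 0.07 on the log2 scale, and the groups did not overlap. The third lipin, LPIN3, is no member and was taken from a list of other phosphatases. It fell by 0.51 ± 0.06 (edgeR adjusted p = 7.2e-05), from 35.2 ± 0.552 to 24.6 ± 1.26 CPM (SD, n = 3). The summed TPM of the 3 lipins was 82.9 ± 1.15 in control and 51.5 ± 4.69 after TGF-β1. LPIN1 had 33.5 ± 2.62% of that sum in control and 25.5 ± 0.241% after TGF-β1, and LPIN2 had 40.3 ± 1.45% and 47.1 ± 1.97%.

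DGAT2 (chr11:75768778-75801534, plus strand) makes a triglyceride-forming enzyme and was the lowest member that passed the filter in control. It was at 9.88, 10.01 and 9.20 CPM in control and 9.79, 8.23 and 9.60 CPM after TGF-β1. The groups overlapped, and the log2 fold change of -0.08 ± 0.10 (SE) was not called.

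DGAT1, which makes the other enzyme of this step, had 0 counts in all 6 libraries at its entry on chromosome 8 (bases 144314584 to 144326852). A count of 0 allows up to 3 counts, or 0.115 to 0.143 CPM in these libraries, for counting error only. The tables hold another DGAT1 entry, on an alternate contig that carries a further copy of this part of the genome. That entry had 14, 107 and 35 counts in control and 259, 297 and 300 counts after TGF-β1. The groups did not overlap, but control libraries differed among themselves by far more than those of any other member. The log2 fold change of the contig entry was 2.48 ± 0.71 (SE), between means of 2.16 ± 1.96 and 12.2 ± 2.19 CPM (SD, n = 3), and it was not called. In 13 alternatives it was called in 5. With all libraries, these were DESeq2 (2.50), limma-voom (2.85) and the filter on a mean of at least 50 counts (2.46). The others were the fits without control replicate 2 (3.51) and without control replicate 1 (2.05).

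The contig lists 17 named genes, of which 11 had a count at either entry, and 9 of these had more counts there than at their chromosome entry. HSF1, the heat shock factor that overlaps DGAT1, had 252, 114 and 241 control counts on the contig, and the TGF-β1 libraries had 702, 479 and 1074 there, against at most 2 on the chromosome. CPSF1, a subunit of the polyadenylation complex, had 284, 873 and 95 control counts on the contig, and 2729, 343 and 544 in the TGF-β1 libraries, so that libraries of a group differed widely there too. BOP1 went the other way, with 1121 to 1955 counts on the chromosome and 7 to 20 on the contig. TONSL did too, with 7632 counts on the chromosome and 256 on the contig, summed over the libraries. How reads were shared between the copies was not tested, so the level and the change of DGAT1 are uncertain.

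**Figure D3:**
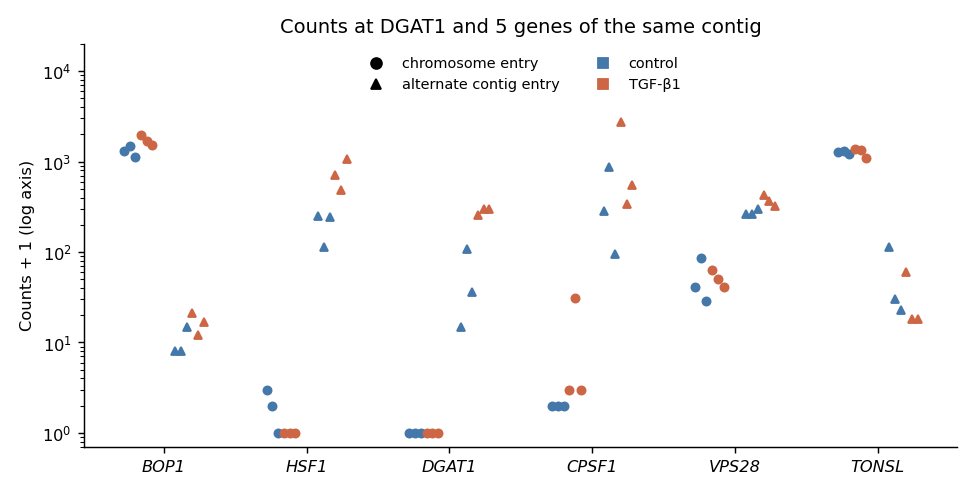
Raw counts plus 1 (y axis, log scale) of DGAT1 and 5 genes listed on the same alternate contig (x axis), at the chromosome entry (circles) and the contig entry (triangles), with libraries coloured by group. DGAT1 has 0 counts on the chromosome in all libraries and 14 to 107 on the contig in control and 259 to 300 after TGF-β1.

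PLIN2 (chr9:19108391-19127518, minus strand) makes the droplet coat protein found in most cell types and follows their load of neutral lipid. It was at 100.3, 102 and 97.1 CPM in control and 44.9, 49.4 and 45.9 CPM after TGF-β1. The groups were far apart and each was tight. PLIN2 fell by 1.09 ± 0.06 on the log2 scale, or 2.13-fold between the means. Lipid was not measured in these libraries, and the study reports lipid accumulation by staining in HK-2 cells after TGF-β. How the fall of PLIN2 relates to lipid load was not tested. PLIN3, a coat protein that is also found free in the cytosol, was the other perilipin expressed at a high level. It was at 164 CPM in control and 165 CPM after TGF-β1, with a log2 fold change of 0.01 (edgeR adjusted p = 0.937). Of their summed TPM, PLIN2 had 36.4 ± 0.437% in control and 21.1 ± 1.38% after TGF-β1 (SD, n = 3). PLIN1 and PLIN5, the coats of fat cells and of oxidative tissue, had at most 4 counts in any library.

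PNPLA2 (chr11:818914-825573, plus strand) makes adipose triglyceride lipase, which starts the breakdown of stored triglyceride. It was at 79.0, 77.0 and 65.9 CPM in control and 77.9, 66.1 and 68.5 CPM after TGF-β1. The groups overlapped and the log2 fold change of -0.06 ± 0.08 (SE) was not called.

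**Figure D4:**
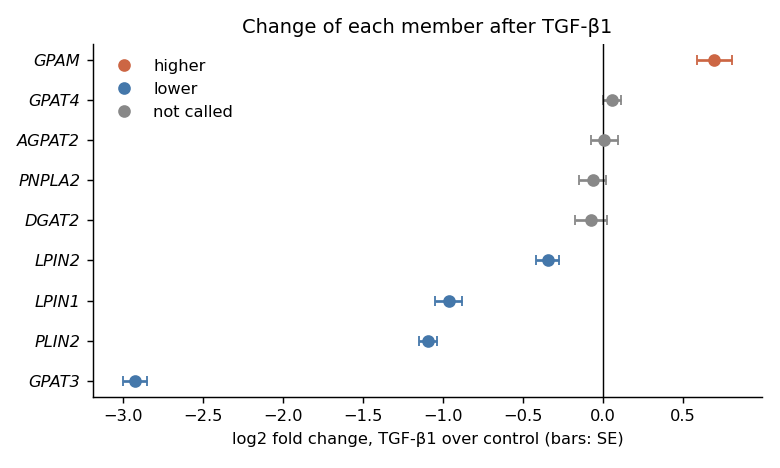
Log2 fold change of TGF-β1 over control (x axis) with its SE for the 9 members tested (y axis), coloured by the edgeR call. GPAT3 lies at -2.92, PLIN2 at -1.09, LPIN1 at -0.96 and GPAM at 0.70, while GPAT4, AGPAT2, PNPLA2 and DGAT2 lie between 0.06 and -0.08.

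The groups did not overlap for 5 of the 9 members, as for 55.6% of all genes tested. In TPM, which sets levels per length, PLIN2 was the highest member in control (140.1 ± 2.21) and fell behind AGPAT2 (107 ± 8.05) and PNPLA2 (89.8 ± 5.30) after TGF-β1, where it was at 60.6 ± 4.53 (SD, n = 3). GPAT4 was next in both groups, at 48.9 ± 1.56 and 47.0 ± 2.81 TPM. GPAT3 was at 20.7 ± 0.953 TPM in control, level with GPAM (18.3 ± 1.57), since the libraries of these neighbours overlapped. After TGF-β1 it was the lowest of the 9 at 2.51 ± 0.127 TPM, under DGAT2 at 11.3 ± 0.847 TPM, and the libraries of these did not overlap. GPAM and LPIN2 (20.9 to 26.1 TPM) overlapped after TGF-β1, as did LPIN1 (13.2 ± 1.30) and DGAT2.

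Other genes of the pathway were taken from 12 lists by role, 113 genes in all, of which 89 passed the filter. Of these, 18 were called higher and 30 lower, 20.2% and 33.7%, beside 22.2% and 22.1% of all genes. Their median log2 fold change was -0.14 and that of all genes tested was 0.01. With total counts as the scale, 13 were called higher and 44 lower, and over all genes 2134 higher and 4590 lower in place of 3294 and 3288, with a median of -0.10. Of the 89 pathway genes tested, 7 were called lower and 5 higher with a change of at least 2-fold. Of all genes tested, 5.38% were called lower with a change of that size.

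Upstream of the GPAT step, 3 of the 4 long-chain acyl-CoA synthetases tested fell. These enzymes activate fatty acids for use. ACSL5 went from 18.2 ± 0.0339 to 10.7 ± 0.835 CPM (SD, n = 3), a log2 fold change of -0.76 ± 0.08 (edgeR adjusted p = 2.15e-05), and ACSL1 went from 44.8 ± 2.36 to 28.6 ± 2.52 CPM, a change of -0.65 ± 0.08 (adjusted p = 5.19e-05). ACSL4 was the most abundant, at 529 and 443 CPM, and fell by 0.26. ACSL3 was not called. Of 4 genes that supply glycerol 3-phosphate, GPD2, the mitochondrial dehydrogenase, fell by 0.39 ± 0.08 (adjusted p = 0.00209), GPD1 fell from a low level of 0.611 CPM (a call lost in 6 of 13 alternatives), and GPD1L and the kinase GK were not called. Of the transporters and binding proteins for fatty acids, 5 of 11 passed the filter. SLC27A4 rose from 28.6 ± 1.02 to 49.5 ± 4.90 CPM (0.79 ± 0.08, adjusted p = 1.34e-05) and FABP5 rose by 0.34 ± 0.11 (adjusted p = 0.0255), while SLC27A1 fell by 0.26 ± 0.09 (adjusted p = 0.0377). The FABP5 call was lost in 4 of 14 alternatives and the SLC27A1 call in 7. The uptake receptor CD36 had at most 4 counts in any library.

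Among other acyltransferases, AGPAT3 fell from 113 ± 4.83 to 86.2 ± 3.42 CPM (-0.39 ± 0.06, adjusted p = 0.000269), AGPAT1 rose by 0.45 from 2.48 CPM, and GPAT2, AGPAT4 and LCLAT1 were not called. AGPAT1 has 7 entries in the tables, and its call was lost in 9 of 14 alternatives. MOGAT1, MOGAT2 and MOGAT3, the monoacylglycerol acyltransferases of the gut route, had at most 2 counts. Among other lipid phosphatases, 3 of 6 fell and 1 rose. PLPP3, which acts at the cell surface on lysophosphatidate, went from 13.6 ± 0.553 to 7.35 ± 0.860 CPM (-0.89 ± 0.10, adjusted p = 4.12e-05), and PLPP2 fell by 0.26. PLPP5 rose by 0.22 ± 0.08 (adjusted p = 0.0454), a call lost in 11 of 14 alternatives.

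The diacylglycerol kinases, which turn diacylglycerol back into phosphatidate, moved both ways, with 2 of 8 higher and 2 lower. DGKI went from 37.8, 36.0 and 46.7 CPM in control to 108, 145 and 144 CPM after TGF-β1, so that the groups were far apart. Its log2 fold change was 1.72 ± 0.15 (adjusted p = 0.000139). DGKA rose by 0.42 ± 0.07 (adjusted p = 0.000594), DGKG fell by 0.59 ± 0.12 (adjusted p = 0.00247), and DGKE fell by 0.28 ± 0.07 (adjusted p = 0.00755). DGKH, the most abundant of the list in control, was at 138 CPM there and 94.2 CPM after TGF-β1. The groups did not overlap, but it was not called (-0.55, edgeR adjusted p = 0.0517).

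Of 16 genes tested in the phospholipid branch, which draws on phosphatidate and diacylglycerol, 3 rose and 3 fell. CDS1, which commits phosphatidate to CDP-diacylglycerol, was at 11.7, 11.2 and 12.2 CPM in control and 25.9, 24.7 and 25.2 CPM after TGF-β1. The log2 fold change of CDS1 was 1.11 ± 0.07 (adjusted p = 2.93e-07), and its paralogue CDS2 fell by 0.36. PTDSS1, a phosphatidylserine synthase, rose by 0.48 ± 0.05 (adjusted p = 3e-05). PISD, which makes phosphatidylethanolamine from phosphatidylserine in mitochondria, was at 105, 109 and 107 CPM in control and 48.7, 43.2 and 46.6 CPM after TGF-β1, a fall of 1.21 ± 0.06 on the log2 scale (adjusted p = 5.13e-08). PCYT2, of the route to phosphatidylethanolamine that starts from ethanolamine, fell by 0.47 ± 0.09 (adjusted p = 0.00173). Among 7 lysophospholipid acyltransferases, MBOAT2 rose from 60.4 ± 0.881 to 138 ± 10.6 CPM (1.19 ± 0.06, adjusted p = 1.07e-07), LPCAT2 rose by 1.30 from 1.53 CPM, LPCAT1 fell by 0.79 (a call lost in 6 of 14 alternatives) and 4 were not called. The alternate contig entry of LPCAT1 was not called (-0.31).

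**Figure D5:**
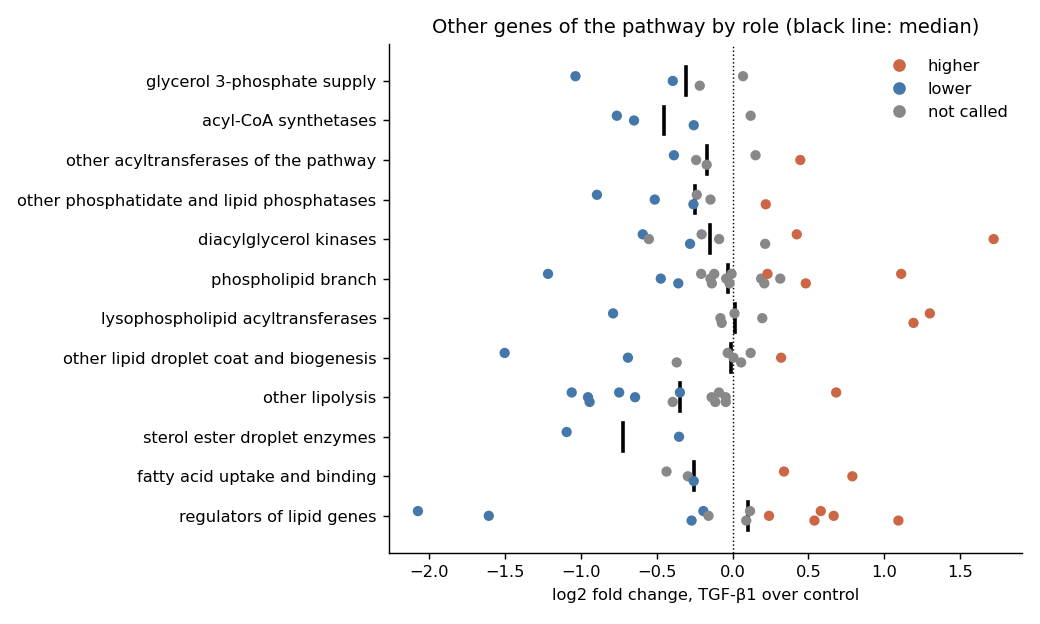
Log2 fold change of TGF-β1 over control (x axis) of the other pathway genes that were tested, by list (y axis). Points are genes, coloured by the edgeR call, ACSL3 stands in 2 lists, and the black line is the median of a list. DGKI, LPCAT2, MBOAT2, CDS1 and MLXIP lie above 1, and CEBPD and CEBPA are the lowest.

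Of the other droplet coat and biogenesis genes, 8 of 16 passed the filter, and LDAF1 and HILPDA fell while AUP1 rose. LDAF1, the partner of seipin at sites of droplet formation, was at 14.8, 15.0 and 13.7 CPM in control and 5.38, 4.30 and 5.73 CPM after TGF-β1, a fall of 1.50 ± 0.12 on the log2 scale (adjusted p = 1.81e-06). HILPDA, a hypoxia-induced droplet protein that inhibits PNPLA2, went from 29.0 ± 1.03 to 18.0 ± 0.261 CPM (-0.69 ± 0.06, adjusted p = 6.32e-06). AUP1, a droplet protein of the ubiquitin system, rose by 0.32 ± 0.07 (adjusted p = 0.00234). The seipin gene BSCL2 had 6 to 14 counts a library and was not tested.

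Of 13 other lipolysis genes tested, 6 fell and 1 rose, and their median log2 fold change was -0.35. MGLL, the monoacylglycerol lipase of the last step, was at 149, 150.4 and 147 CPM in control and 73.0, 71.1 and 69.9 CPM after TGF-β1. MGLL fell by 1.06 ± 0.05 on the log2 scale (adjusted p = 4.08e-08). G0S2, an inhibitor of PNPLA2, fell from 46.6 to 24.2 CPM (-0.94), and ABHD5, the activator of PNPLA2, was at 35.1 and 32.5 CPM and was not called. DAGLA and DAGLB, the diacylglycerol lipases, fell by 0.95 ± 0.11 (adjusted p = 4.03e-05) and by 0.64. ABHD6 rose by 0.68 ± 0.13 (adjusted p = 0.00143), from 4.42 to 7.10 CPM. Of the sterol ester enzymes, NCEH1, a neutral cholesterol ester hydrolase, went from 281, 273 and 288 CPM in control to 125, 136 and 135 CPM after TGF-β1, a fall of 1.09 ± 0.05 (adjusted p = 5.8e-08), and SOAT1, which esterifies cholesterol, fell by 0.35 ± 0.06 (adjusted p = 0.00093).

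Among 12 regulators of lipid genes tested, 5 rose and 4 fell. CEBPD and CEBPA, factors known from fat cell differentiation, fell, with log2 fold changes of -2.07 ± 0.13 (adjusted p = 4.89e-06) and -1.60 ± 0.19 (adjusted p = 4.9e-05). CEBPD was at 53.0, 60.3 and 58.9 CPM in control and 16.7, 11.2 and 13.0 CPM after TGF-β1. MLXIP, a glucose-sensing partner of MLX, rose from 43.3 ± 1.24 to 92.4 ± 4.34 CPM (1.09 ± 0.06, adjusted p = 9.83e-08), and CEBPB rose by 0.67 ± 0.09 (adjusted p = 0.000184). The MLXIP values are of its chromosome entry only. Its alternate contig entry had 65, 187 and 67 control counts, and 334, 383 and 675 in the TGF-β1 libraries, and was not called (2.17). SREBF1, the sterol-regulated factor for GPAM among others, fell by 0.19 (adjusted p = 0.043, a call lost in 6 of 14 alternatives). PPARG, of which PLIN2 is a known target, was at 16.7 and 17.7 CPM and was not called. These are RNA levels, and the study reports that TGF-β lowered PPAR-γ protein in HK-2 cells transfected with lentivirus. Of the other PPAR genes, PPARD rose from 24.3 to 35.3 CPM (0.54, edgeR adjusted p = 0.00025) and PPARA was not called.

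The nearest tested genes on either side of each member, and any tested gene overlapping it, were 21 genes. Of these, 4 were called higher and 5 lower, and MAP6 next to DGAT2, at 1.25 CPM in control, was the only one called with a change of at least 2-fold (-1.32). GPAT3 lay between ABRAXAS1, 50496 bases before it (-0.22, adjusted p = 0.0866), and NKX6-1, 886109 bases after it (0.13, adjusted p = 0.197), and neither was called. PLIN2 had HAUS6 at 5486 bases (-0.07, not called) and DENND4C at 102994 bases, which fell by 0.91. GPAM had ACSL5 at 157809 bases, which fell while GPAM rose. PNPLA2 overlapped CRACR2B, on the same strand, by 16 bases. CRACR2B was at 4.19 CPM in control and fell by 0.55 (adjusted p = 0.0121), a call lost in 2 of 14 alternatives, DESeq2 and the fit without control replicate 2.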

How the data were processed

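HK-2 cells were profiled by poly(A) RNA-seq in 3 control and 3 TGF-β1 libraries, grouped by the treatment in their labels. Adapters and poor-quality reads were removed by the authors, who deposited raw counts per gene together with their TPM and FPKM values. The aligner, annotation release and strand setting are not given in the sources used here. The submitters' processing notes name build hg38, CASAVA, featureCounts 2.0.1 and DESeq2 1.16.1, with no role for each. Names and coordinates are those of the deposited tables (GRCh38).

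In each table, 7 records broken over lines were rejoined. Loci without a name (598 of 42095 entries, 0.396% to 0.464% of counts) were left out, and each entry was tested as listed. Another 4519 named entries lay off the primary chromosomes, and 2175 names had more than 1 entry. Where a name has several entries, its reads may be split between them.

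Counts were filtered with filterByExpr (minimum count 10), scaled with TMM, and tested by the two-sided quasi-likelihood F test of edgeR 4.0.16 over all 14860 genes, with Benjamini-Hochberg adjustment. A call is an adjusted p under 0.05. The SE of a log2 fold change is its size over the square root of F. Levels in TPM are the deposited values, which are not TMM-scaled. The step was tested on counts simulated from these libraries, with known changes in a small part of the genes. That setting differs from these data, where 44.3% of genes tested were called, so it does not measure error rates here. Other tools were limma 3.58.1 and DESeq2 1.42.0 in R 4.3.3, and pandas 2.3.3 and matplotlib 3.10.9 in Python 3.11.15.

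The members and lists were chosen with earlier results of these data known. Besides all members, the genes named were, from each list, the 2 called genes with the largest change in each direction and a mean of at least 5 CPM in a group, 5 TGF-β response genes, and the nearest tested neighbours. Other genes in the text were chosen after their values were seen. Promoter sequence is from RefSeq (GRCh38.p14). Alternatives were DESeq2, limma-voom, RLE size factors, total counts, other filters, summed entries of a name, a fit with a replicate block, and 6 fits that each left out a library. The family shares of lipins and perilipins were added after the data were seen.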

Additional observations from a re-analysis of the deposited data

Results flagged for a closer look

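DGAT1 was listed at 0 counts on its chromosome, and its entry on an alternate contig, which the comparison of the members does not use, held counts above the control level, with a mean of 12.2 CPM after TGF-β1 and 2.16 CPM in control. The 3 TGF-β1 libraries were at 9.95, 12.3 and 14.3 CPM and the control libraries at 0.620, 4.37 and 1.49 CPM. Of the 11 genes of that contig with a count at either entry, 9 had more counts on the contig. The part that the division of reads between copies has in this difference was not tested.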

How the results depend on the processing

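The 5 member calls and their directions held under every alternative run, with GPAT3 between -3.03 and -2.91 on the log2 scale, or -2.95 and -2.90 with a library left out. With the entries of a name summed, DGAT1 was called too, which made 6. Among the members, the sign of the uncalled GPAT4 reversed with total counts (-0.050), as did that of AGPAT2 (-0.098), which also reversed with a mean of at least 50 counts (-0.013) and with a library left out (-0.073 to 0.080). Of the neighbours, DIPK1B (-0.075) and EMILIN2 (-0.047) reversed with total counts and SLC39A4 with entries summed (-0.53). With a library left out, RPLP2 ranged from -0.13 to 0.034, UVRAG from -0.071 to 0.021, HAUS6 from -0.13 to 0.0051 and DIPK1B from -0.038 to 0.11. All of these were uncalled. Of the 48 called pathway genes, 36 kept the call in every alternative that tested them. The pathway genes called ranged from 13 to 19 higher and from 27 to 44 lower. TGF-β1 replicate 1 was the lowest of its group for GPAM, LPIN2 and DGKI. Without it, 3545 genes were called higher and 3651 lower over all genes, against 3294 and 3288 with all libraries. Leaving out any other library lowered both counts. The fall in the GPAT3 share of GPAT TPM was -14.1 percentage points, -13.8 by reads, and -14.6 to -13.4 with a library left out.

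Correlations of deviations were 0.111, -0.0117 and 0.0762 for same-numbered libraries, and -0.149 to 0.0883 for libraries with different numbers. Since these ranges overlap, whether replicate numbers pair the libraries cannot be told from them. With a replicate block, 5 members, 19 higher and 31 lower pathway genes were called. Only 3 libraries a group and entries shared between genome copies limit these results, and the filter on low counts left 24 of the 113 pathway genes untested.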

Other observations

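AGPAT5, of the same family as AGPAT2, had at most 1 count at its entry on the chromosome. Its alternate contig entry had 23, 20 and 27 control counts, and 30, 41 and 329 in the TGF-β1 libraries, so that 1 library alone stood high.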
